A study of Mus musculus with 2 samples.

Results

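Surface signals that macrophages show to T cells were followed through 10 genes in bone marrow derived macrophages with and without IL-36 gamma. They encode costimulatory ligands (Cd80, Cd86, Icosl), checkpoint ligands (Cd274, Pdcd1lg2, Vsir), the TIM-3 receptor and its ligand galectin-9 (Havcr2, Lgals9), the maturation marker Cd83 and the adhesion ligand Icam1. The members were chosen by name, with earlier results of these data known. All 10 were found among the 54446 genes counted, and all 10 passed the minimum mean count of 10 that 14379 genes passed. The IL-36 gamma group was 1 library of macrophages cultured from bone marrow of C57BL/6 mice and given IL-36 gamma, which belongs to the interleukin-1 cytokines. The control group was 1 library of the same kind of macrophages with no treatment. Neither group carried a mutant allele by the labels. The dose, the time of exposure, the age of the mice and whether animals were pooled are not stated in the labels. The question is which transcripts differ between the treated and the untreated macrophages.

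A T cell needs a second signal beside its antigen receptor, and ligands on the presenting cell supply it. CD80 and CD86 bind CD28 and activate the T cell, or bind CTLA-4 with higher affinity and restrain it. PD-L1 and PD-L2, encoded by Cd274 and Pdcd1lg2, engage the inhibitory receptor PD-1, and VISTA, encoded by Vsir, is another inhibitory molecule of the same B7 family that is abundant on myeloid cells. ICAM-1 holds the contact between the cells together by binding beta-2 integrins. In macrophages several of these genes are known targets of interferon and of NF-kB.

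The IL-36 gamma library held 17267900 counts in genes and the control library 17426367, and the counter assigned 46.3% of alignments to no gene in the IL-36 gamma library and 47.2% in the control. With 1 library per group no difference has a replicate check, no test was possible and no p-value is given. Every ratio has the scaled IL-36 gamma count on top and the scaled control count below, with an exact (Clopper-Pearson) 95% interval that covers counting error only. All 10 macrophage markers were measured, 3 above 1 and 6 below, with a summed level of 29488 CPM (counts relative to the scaled library total) in the IL-36 gamma library and 29668 CPM in the control. Lyz2 made up most of both sums (22462 CPM with IL-36 gamma and 22763 CPM in the control), and the ratios of the others ran from 0.672 for Mrc1, 0.682 for Cx3cr1 and 0.809 for Csf1r to 1.28 for Itgam and 1.35 for Fcgr1. Of other cell types, 3 of 12 dendritic cell markers were measured (summed level 32.9 CPM with IL-36 gamma and 24.4 CPM in the control) and all 3 (Fscn1, Batf3 and Ccl22) had an interval above 1. The defining dendritic cell genes Flt3 (2 counts with IL-36 gamma, 1 in the control) and Zbtb46 (5 counts in each) were near 0, and Cd209a, Siglech and Ccl17 had 0 counts in both libraries. Xcr1 (3 counts with IL-36 gamma, 11 in the control), Clec9a (4 and 10) and Itgae (5 and 11) had fewer counts with IL-36 gamma. Ccr7 (12 and 3) had more. None of these genes reached the minimum mean count of 10. Neutrophil markers summed to 525.5 CPM with IL-36 gamma and 448.3 CPM in the control, with 7 of 13 measured markers above 1 and 2 below and a median log2 ratio of 0.68. The granule and calgranulin genes S100a8, S100a9, Lcn2, Ngp, Ltf and Camp had ratios of 1.53 to 1.86, Mmp8 had 0.663, and the neutrophil elastase gene Elane, the 1 listed gene past 2-fold, had 22 counts with IL-36 gamma and 3 in the control, a ratio of 7.70 (2.31 to 40.2). T cell markers summed to 15.2 CPM with IL-36 gamma and 23.2 CPM in the control. Of 13 listed, 3 were measured, with 0 above 1 and 2 below, Cd4 (0.579) and Cd247 (0.707). Cd3e and Cd3g had 0 counts in both libraries. B cell markers summed to 47.5 CPM with IL-36 gamma and 43.8 CPM in the control. Of 10 listed, 3 were measured, with Cd79b (1.34) above 1 and Ighm (0.831) below. Ms4a1 had 2 counts with IL-36 gamma and 1 in the control. Endothelial and stromal markers summed to 45.5 CPM with IL-36 gamma and 44.3 CPM in the control, of which Pecam1 (ratio 1.27) held 36.4 CPM with IL-36 gamma and 28.6 CPM in the control. Of the 6 measured, 1 lay above 1 and 4 below, with a median log2 ratio of -0.72, and the collagen genes Col1a2 (0.367) and Col3a1 (0.442) were the lowest. In bulk RNA, a change in the share of a cell type and a change in RNA per cell cannot be told apart, and the part of these markers in the values below was not tested.

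The 10 genes divided evenly. Lgals9, Cd274, Icam1 and Vsir were higher with IL-36 gamma, Cd86, Cd83, Icosl and Havcr2 were lower, and the intervals of Cd80 and Pdcd1lg2 included 1. Thus 4 of 10 lay wholly above 1, where 20.2% of all measured genes did, and 4 of 10 lay wholly below 1, where 16.5% of all did. Narrow intervals come with high counts, and among the 10095 genes with a mean count of 100 to 10000 the shares were 24.8% above and 19.1% below. These shares are also the background for the counts of the marker lists above and of every gene list below. The members and lists were chosen with earlier results of these data known, which limits what such counts can show. No member passed the rule of size, an interval wholly above 2-fold or below 0.5, which 0.167% of measured genes passed, and none lay wholly past 1.5-fold, where 0.876% of measured genes did. The median log2 ratio of the members was 0.08, against 0.01 over all measured genes, and the members ran from -0.30 to 0.46. The log2 ratios of 3 members lay above the upper quartile of all measured genes and those of 4 below the lower quartile, and all 10 lay between percentiles 5 and 95. The differences of these genes were thus of a size that many other genes had between these libraries.

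**Figure D1:**
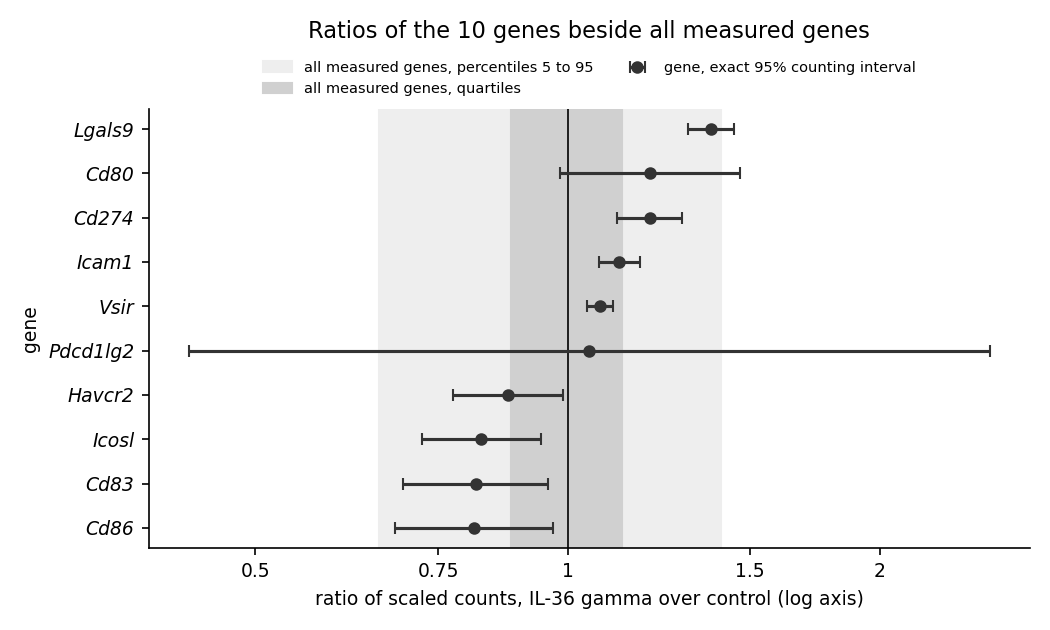
Ratio of scaled counts (IL-36 gamma over control, log axis) for each of the 10 genes, with exact 95% counting intervals from 1 library per group; the dark and the light band hold the quartiles and percentiles 5 to 95 of all 14379 measured genes. Lgals9 has the highest ratio (1.37) and Cd86 the lowest (0.812), and the interval of Pdcd1lg2 spans the widest range.

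The levels of the genes spanned a wide range. Per kilobase of exon, Vsir stood at 115.8 CPM with IL-36 gamma and 107.8 CPM in the control, at percentile 96.7 of measured protein-coding genes with IL-36 gamma and 96.8 in the control. Pdcd1lg2 stood at 0.361 CPM per kilobase with IL-36 gamma and 0.344 in the control. The order was the same in both libraries, Vsir, Lgals9, Icam1, Cd274, Havcr2, Cd83, Icosl, Cd86, Cd80 and Pdcd1lg2. In the IL-36 gamma library the counting intervals of Cd83 and Icosl overlapped, as did those of Cd86 and Cd80, while in the control library no neighbours in the order overlapped. The 4 genes with an interval above 1 were the 4 most abundant members and the 4 genes with an interval below 1 were the next in the order. Ratios of all genes also followed abundance, and with that trend removed 3 members lay above 1 and the same 4 below. Summed over the 10 genes, the level was 317 CPM per kilobase with IL-36 gamma and 278 in the control, of which Vsir held 36.5% with IL-36 gamma and 38.8% in the control.

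**Figure D2:**
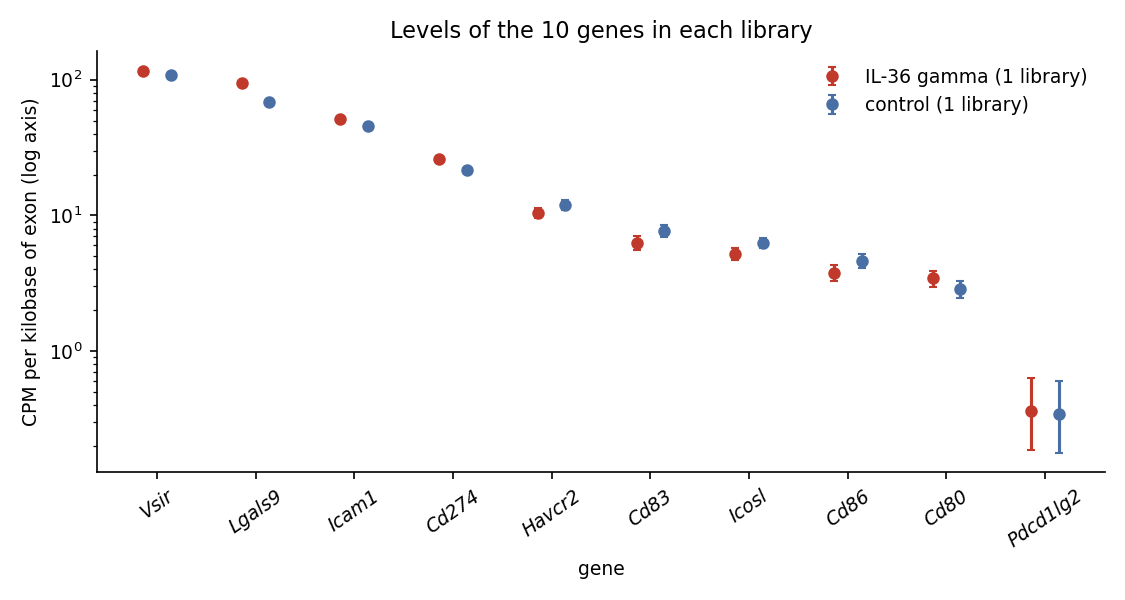
Level of each gene in CPM per kilobase of exon (log axis) in the IL-36 gamma library (left point of each pair) and the control library (right point), with exact Poisson 95% intervals, 1 library per group. Vsir, Lgals9, Icam1 and Cd274 lead in both libraries and Pdcd1lg2 is lowest, at 0.361 CPM per kilobase with IL-36 gamma and 0.344 in the control.

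The paired ligands of CD28 differed in the direction of their ratios. Cd80 (ENSMUSG00000075122, chromosome 16, 38455561 to 38496335, mm10) had 215 counts (12.7 CPM) in the IL-36 gamma library and 188 counts (10.6 CPM) in the control. Its ratio was 1.20, with an interval of 0.982 to 1.47 that includes 1. Cd86 (ENSMUSG00000022901, chromosome 16, 36603869 to 36666081) had 233 counts (13.8 CPM) with IL-36 gamma and 301 counts (16.9 CPM) in the control. Cd86 was lower in the IL-36 gamma library, with a ratio of 0.812 (0.682 to 0.967), the lowest of the 10 genes. Set against each other per kilobase, Cd80 stood at 0.912 (0.754 to 1.10) times Cd86 in the IL-36 gamma library and at 0.618 (0.512 to 0.743) times Cd86 in the control. The quotient of these ratios was 1.48 (1.14 to 1.92), in which the scaling of the libraries cancels. Neither gene shares exonic bases with the opposite strand. Of their T cell receptors, Cd28 had 99 counts in the IL-36 gamma library and 98 in the control, a ratio of 1.06 (0.794 to 1.42), and Ctla4 had 0 in both, which allows up to 0.177 and 0.169 CPM, the levels of 3 counts. Of 14 T cell receptors of such ligands, 4 were measured, and all 4 had an interval that includes 1.

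Icosl (ENSMUSG00000000732, chromosome 10, 78069302 to 78083913), the ligand of the inducible costimulator ICOS, was lower with IL-36 gamma. It had 406 counts (24.0 CPM) in the IL-36 gamma library and 516 counts (29.0 CPM) in the control, a ratio of 0.826 (0.723 to 0.942). Of the 4 lower members it was the one whose interval stayed below 1 at a level of 99%. Its receptor gene Icos had 6 counts with IL-36 gamma and 0 in the control.

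Cd83 (ENSMUSG00000015396, chromosome 13, 43784775 to 43803132) encodes a surface marker of mature dendritic cells that keeps CD86 and class II molecules at the surface by opposing the ubiquitin ligase MARCH1. It had 272 counts (16.1 CPM) in the IL-36 gamma library and 350 counts (19.7 CPM) in the control. Cd83 was lower with IL-36 gamma, with a ratio of 0.816 (0.694 to 0.958), close to that of Cd86. The ligase gene March1 itself had 1041 counts in the IL-36 gamma library and 1098 in the control, and its ratio of 0.995 (0.913 to 1.08) had an interval that includes 1. Exons on the opposite strand cover 546 of its exonic bases. In the list of CD86 turnover and class II partners 2 of 10 measured genes lay above 1 and 1 below, with a median log2 ratio of -0.01. Il10, a cytokine known to lower CD86 on macrophages, had 311 counts with IL-36 gamma and 177 in the control, a ratio of 1.84 (1.53 to 2.23). The lysosomal protease gene Ctss, which trims the class II invariant chain, had a ratio of 1.22 (1.20 to 1.24). The IL-10 receptor gene Il10ra was the 1 gene below, at 0.924 (0.881 to 0.970).

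Cd274 (ENSMUSG00000016496, chromosome 19, 29367455 to 29388095), which encodes PD-L1, was higher with IL-36 gamma. It had 1595 counts (94.2 CPM) in the IL-36 gamma library and 1395 counts (78.5 CPM) in the control. The ratio was 1.20 (1.12 to 1.29), at percentile 84.7 of all measured genes. Of its 3622 exonic bases, 511 overlap exons of a gene on the opposite strand, and reads of the pair cannot be told apart where the counting did not use strand. Pdcd1lg2 (ENSMUSG00000016498, chromosome 19, 29410919 to 29471161), which encodes PD-L2 and lies next to Cd274, was barely detected, with 12 counts in each library (0.709 CPM with IL-36 gamma and 0.675 CPM in the control). Its ratio of 1.05 had an interval of 0.431 to 2.55, so that a change of up to about 2-fold either way was not detectable at this depth. Per kilobase, Cd274 stood at 72.0 (41.1 to 139.6) times Pdcd1lg2 in the IL-36 gamma library and 62.9 (35.9 to 122.1) times in the control. The gene of their receptor, Pdcd1, had 0 counts in both libraries.

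Genes known to control PD-L1 and PD-L2 lay on both sides of 1. Of 18 measured regulators, 5 lay above 1 and 4 below, where 20.2% and 16.5% of all measured genes did. None lay past 2-fold, and the median log2 ratio was 0.01. Among those above 1 were Stat2, a signal carrier of type I interferon, with 2690 counts with IL-36 gamma and 2443 in the control, a ratio of 1.16 (1.09 to 1.22), and Stat3, which carries signals of IL-6 and IL-10, at 1.14 (1.08 to 1.22). Among those below 1 were the interferon gamma receptor gene Ifngr1 at 0.881 (0.835 to 0.930), the hypoxia factor gene Hif1a at 0.899 (0.829 to 0.975) and the type I interferon receptor gene Ifnar1 at 0.940 (0.891 to 0.992). The PD-L1 stabiliser gene Cmtm6 had a ratio of 1.01 (0.956 to 1.08), and Irf1, a direct activator of Cd274, had 0.978 (0.892 to 1.07).

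Vsir (ENSMUSG00000020101, chromosome 10, 60346851 to 60372684), which encodes VISTA, was the most abundant member. It had 9835 counts (581 CPM) in the IL-36 gamma library and 9607 counts (541 CPM) in the control. The ratio of 1.07 (1.04 to 1.11) was the smallest difference with an interval above 1. With the trend on expression removed, the ratio was 0.992 and the interval included 1, so that its direction depended on that step. Of the binding partners of VISTA, Igsf11 had 10 counts with IL-36 gamma and 16 in the control. Its ratio of 0.656 (0.266 to 1.54) had an interval that includes 1. Selplg, which encodes the selectin ligand PSGL-1, had 8946 counts with IL-36 gamma and 8166 in the control, a ratio of 1.15 (1.12 to 1.19).

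Other B7 related ligands were few in these cells. Of 8 matched genes 3 were measured, with 0 above 1 and 2 below. Vsig4, a complement receptor of tissue macrophages that also inhibits T cells, had 61 counts with IL-36 gamma and 142 in the control, a ratio of 0.451 (0.328 to 0.613). Cd276, which encodes B7-H3, had 211 counts with IL-36 gamma and 273 in the control, a ratio of 0.811 (0.675 to 0.974). Vtcn1 and Btn1a1 had 0 counts in both libraries. Among costimulatory ligands of the TNF family and CD40, 2 of 7 measured genes lay above 1 and 0 below, with a median log2 ratio of 0.29. Tnfsf9, the ligand of the T cell receptor 4-1BB, had 191 counts with IL-36 gamma and 133 in the control, a ratio of 1.51 (1.20 to 1.90). Tnfrsf14, the ligand of the inhibitory receptor BTLA, had 782 counts with IL-36 gamma and 694 in the control, a ratio of 1.18 (1.07 to 1.31). Cd40 had 129 counts with IL-36 gamma and 145 in the control, and its interval (0.731 to 1.19) included 1.

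Galectin-9 and its receptor TIM-3 lay on opposite sides of 1. Lgals9 (ENSMUSG00000001123, chromosome 11, 78962974 to 78984946), which encodes galectin-9, had 3428 counts (202 CPM) in the IL-36 gamma library and 2618 counts (147 CPM) in the control. Its ratio of 1.37 (1.31 to 1.45) was the highest of the 10 genes, at percentile 94.3 of all measured genes. Havcr2 (ENSMUSG00000020399, chromosome 11, 46454935 to 46481255), which encodes TIM-3, an inhibitory receptor also found on myeloid cells, had 481 counts (28.4 CPM) with IL-36 gamma and 576 counts (32.4 CPM) in the control. Havcr2 had a ratio of 0.877 (0.775 to 0.991), and with the trend on GC content removed its interval reached 1.01. Per kilobase, Havcr2 stood at 11.02% (9.996 to 12.1%) of Lgals9 in the IL-36 gamma library and at 17.3% (15.8 to 18.9%) in the control. The quotient of these ratios was 0.638 (0.559 to 0.727). Of the other galectin and TIM genes, 2 of 6 measured lay above 1 and 1 below. The galectin-binding glycoprotein gene Lgals3bp (ratio 1.22, 1.20 to 1.26) and Lgals1 (1.22, 1.19 to 1.24) were higher with IL-36 gamma, and Lgals3, the galectin best known from macrophages, was lower (0.925, 0.911 to 0.940).

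Icam1 (ENSMUSG00000037405, chromosome 9, 21015985 to 21028817), which encodes the ligand of the integrins LFA-1 and Mac-1, was higher with IL-36 gamma. It had 3774 counts (223 CPM) in the IL-36 gamma library and 3530 counts (199 CPM) in the control, a ratio of 1.12 (1.07 to 1.18). Of its 4360 exonic bases, 511 overlap exons of the antisense gene Gm47079, which itself had 804 counts with IL-36 gamma and 726 in the control. The genes of its integrin partners were abundant. Itgal, the alpha chain of LFA-1, had 10149 counts with IL-36 gamma and 8990 in the control, a ratio of 1.18 (1.15 to 1.22). Itgam, the alpha chain of Mac-1, had a ratio of 1.28 (1.24 to 1.33), and the shared beta chain gene Itgb2 had 1.04 (1.02 to 1.06). Of 12 measured beta-2 integrins and activators 6 lay above 1 and 3 below, among them Itgax at 0.541 (0.473 to 0.619) and the talin gene Tln1 at 0.866 (0.847 to 0.886).

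The log2 ratios of other adhesion ligands ran from -1.09 to 1.06, a wider span than that of the 10 genes. Its ends were Nectin3 (7 counts with IL-36 gamma, 18 in the control) and Icam4 (16 and 7). Both have low counts and intervals that include 1, and all 1110 exonic bases of Icam4 overlap the opposite strand. Of 18 measured adhesion ligands, 7 lay above 1 and 6 below, where 20.2% and 16.5% of all measured genes did. The median log2 ratio was 0.05. The CD48 receptor gene Cd244a had 418 counts with IL-36 gamma and 266 in the control, a ratio of 1.65 (1.41 to 1.93). Icam2 (1.57, 1.20 to 2.08), a relative of ICAM-1, and Nectin2 (1.34, 1.23 to 1.47), a ligand of the T cell receptors DNAM-1 and TIGIT, were also higher. Vcam1, the ligand of the integrin VLA-4, had 893 counts with IL-36 gamma and 1760 in the control, a ratio of 0.533 (0.491 to 0.578). Cadm1 (0.561, 0.506 to 0.621) and Nectin1 (0.475, 0.281 to 0.784, on 24 counts with IL-36 gamma and 53 in the control) were lower as well. Exons on the opposite strand cover part of Cd276, Tnfsf9, Hif1a, Stat3, Irf1, Tln1, Nectin2, Vcam1, Lilrb4a, Csf1r, Cx3cr1 and Cd247. The part ran from 61 of 8870 exonic bases in Vcam1 to 3007 of 5329 in Cd247, and the values of these genes are uncertain to that extent. Among 18 myeloid inhibitory receptors and ligands 4 lay above 1 and 6 below. The sialic acid receptor gene Siglece (1.33, 1.27 to 1.40) led those above. The inhibitory receptor gene Lilrb4a (0.622, 0.589 to 0.657), which has a close paralog that could share its reads, and Cd200 (0.516, 0.319 to 0.818, on 29 counts with IL-36 gamma and 59 in the control) led those below.

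**Figure D3:**
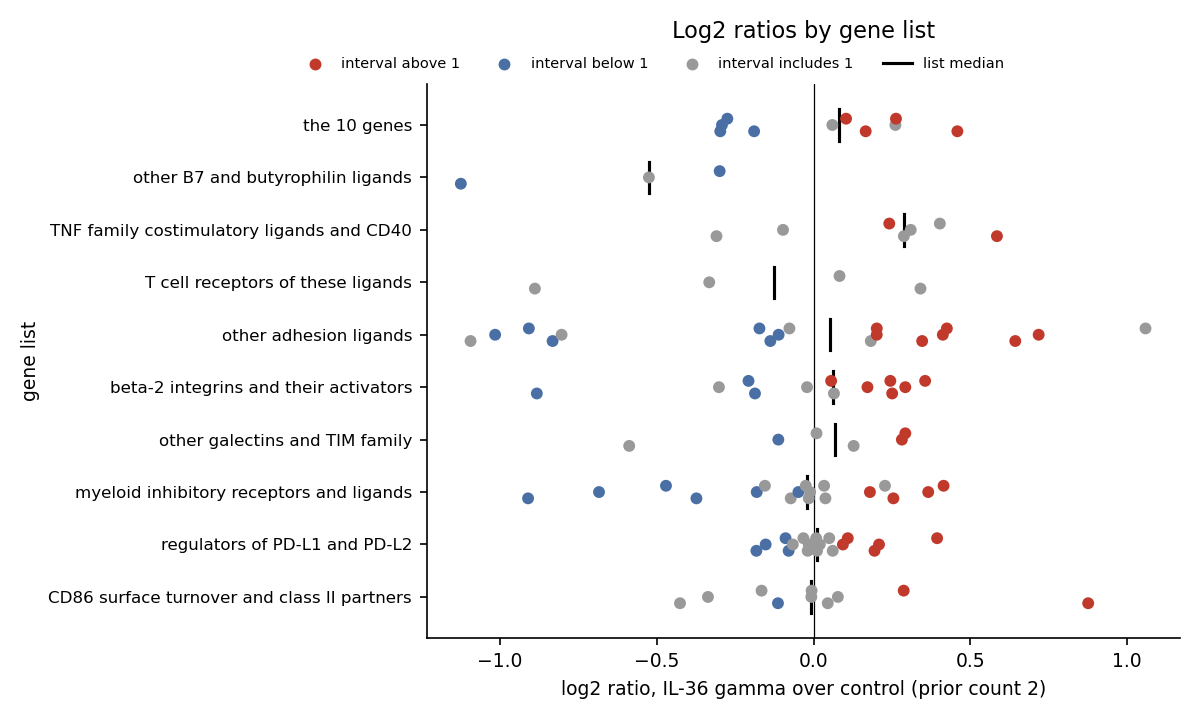
Log2 ratio (IL-36 gamma over control, prior count of 2) of every measured gene in each list, with red points for intervals above 1, blue points for intervals below 1, grey points for intervals that include 1 and a black bar at the list median; 1 library per group. The 10 genes run from -0.30 to 0.46, a narrower span than that of the other adhesion ligands, whose ends are genes with low counts.

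**Figure D4:**
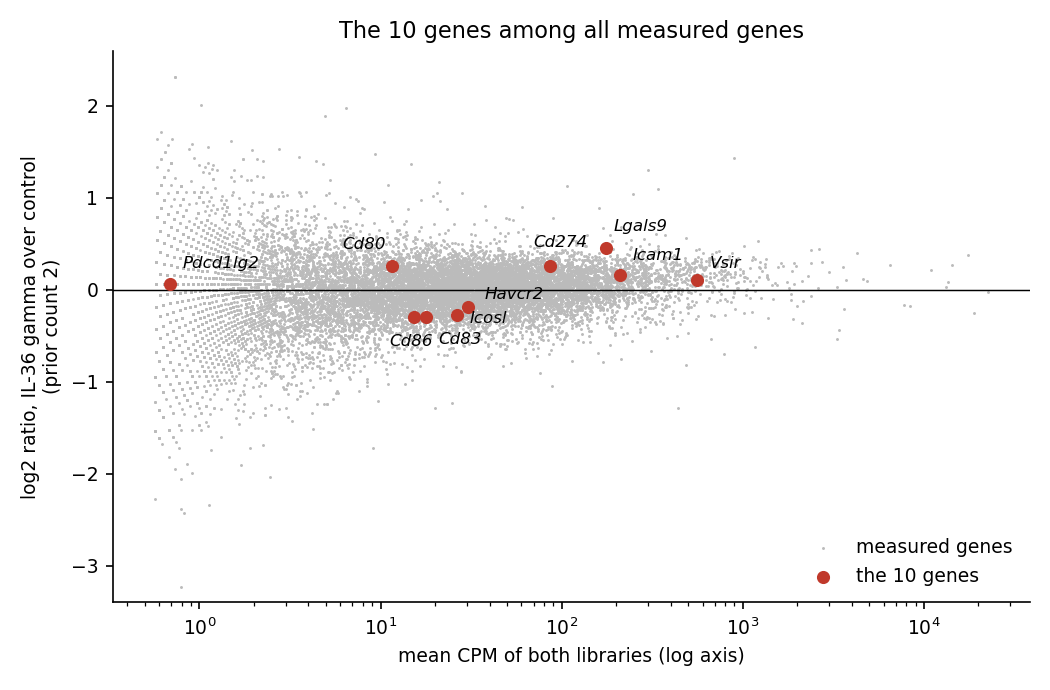
Log2 ratio (IL-36 gamma over control, prior count of 2) against mean CPM (log axis) for all 14379 measured genes in grey and the 10 genes in red, 1 library per group. Every one of the 10 lies inside the cloud of other genes, with Lgals9 near its upper edge at a log2 ratio of 0.46.

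The promoters of Lgals9, Icam1 and Cd274, the members whose interval stayed above 1 under every scaling and trend tried, are shown because interferon and NF-kB sites are known in genes of this kind. Promoters of 8 members were found among the RefSeq sequences (GRCm38.p6), covering 250 bases before to 50 after the start, and those of Cd86 and Cd83 were not used. Both strands were searched for a kappaB motif (GGG, any 2 bases, TTTCC), an interferon response core (GAAA, any 2 bases, GAAA), TTCNNNGAA (GAS, the site of STAT dimers) and TGANTCA (AP-1), of which 1.63%, 3.44%, 8.30% and 7.81% of 32851 promoters hold at least 1 match. No motif match overlapped another in these 8 promoters. Below are the 250 bases before the start of Lgals9 (chr11:78984925-78985174, minus strand), Icam1 (chr9:21015690-21015939, plus strand) and Cd274 (chr19:29367188-29367437, plus strand), 5′ to 3′ along the gene, with motif matches in capitals.
Lgals9: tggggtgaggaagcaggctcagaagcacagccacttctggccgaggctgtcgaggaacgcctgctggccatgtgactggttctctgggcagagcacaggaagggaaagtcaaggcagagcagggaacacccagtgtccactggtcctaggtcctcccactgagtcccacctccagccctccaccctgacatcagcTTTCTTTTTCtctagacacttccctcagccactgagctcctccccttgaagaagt
Icam1: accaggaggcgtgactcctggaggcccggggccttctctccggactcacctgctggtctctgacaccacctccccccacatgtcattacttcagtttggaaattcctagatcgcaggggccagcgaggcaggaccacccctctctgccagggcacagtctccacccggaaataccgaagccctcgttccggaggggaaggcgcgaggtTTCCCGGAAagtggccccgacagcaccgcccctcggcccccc
Cd274: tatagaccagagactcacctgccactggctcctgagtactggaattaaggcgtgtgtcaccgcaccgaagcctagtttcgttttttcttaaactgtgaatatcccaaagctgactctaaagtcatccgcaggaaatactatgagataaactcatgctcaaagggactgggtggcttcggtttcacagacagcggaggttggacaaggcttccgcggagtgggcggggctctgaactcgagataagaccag
Lgals9 held a match to the interferon response core from -55 to -46 and another from 15 to 24, beyond the stretch shown, with the first base after the 250 counted as 0. Icam1 held a GAS match from -42 to -34, and Cd274 held no match in this window. An AP-1 match stood from -42 to -36 in Cd80 and from -200 to -194 in Havcr2. None of the 8 promoters held a match to the kappaB motif as written above. That pattern is narrow, and other forms of kappaB site, such as the tggaaattcc in the Icam1 stretch, were not searched. The lack of a match thus does not show that a promoter lacks a kappaB site. A match is a description of letters and not evidence of binding.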

How the data were processed

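The submitters sequenced total RNA of mouse bone marrow derived macrophages, extracted with Trizol and prepared by a standard Illumina protocol, per the labels' protocols. They deposited raw, whole-number counts for each Ensembl gene. The submitters' processing notes name the build mm10 and, as tools, STAR 2.5.0a, HTSeq, FastQC 0.11.8 and Trim Galore 0.6.1. Neither the annotation release nor the HTSeq version and strand setting is given in the sources used here. The counter's 5 summary rows, which hold no gene, stayed out of library sizes. Of all counted alignments 46.3% in the IL-36 gamma library and 47.2% in the control fell to no gene, 1.84% (IL-36 gamma) and 1.79% (control) were ambiguous, and 6.92% (IL-36 gamma) and 6.65% (control) aligned more than once.

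Symbols, positions and exon lengths came from GENCODE M21, where 54409 gene IDs were found without version numbers. Scaling used TMM factors (0.981 for IL-36 gamma and 1.02 for the control; edgeR 4.0.16, R 4.3.3). A single library in each group leaves no residual degrees of freedom, so edgeR's test was not applied. CPM are counts relative to the scaled library total. Levels between genes are CPM per kilobase of exon, chosen after seeing the data so that levels and ratios share a scale, and TPM gave the same order. Intervals of ratios are Clopper-Pearson and those of levels exact Poisson. They cover counting error only, because each group has 1 library. Reads copied by PCR are not independent molecules, so the intervals may be too narrow for counting error as well. Quotients of ratios carry a normal interval on the log scale. Log2 ratios use a prior count of 2. The scripts were checked on simulated Poisson libraries.

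The members and lists were chosen with earlier results of these data known. Named genes are the members, up to 3 genes above and 3 below 1 of each of 9 wider lists, ranked by the bound nearest 1, and genes past 2-fold. Cd28, Ctla4, Icos, Pdcd1, March1, Cmtm6, Irf1, Igsf11, Selplg, Cd40, Itgal, Itgb2, Vtcn1 and Btn1a1 are named as partners of the members or as undetected genes, outside that rule and after their values were seen. Nectin3 and Icam4 are named, also outside it, as the ends of the span of their list. Alternatives were other scalings (total counts, upper quartile, DESeq2 1.42.0 size factors), lowess trends with a span of 0.3, thinning, other count filters, interval levels, fold bounds and prior counts. Protein sequences were not used here, and values of some list members are not reported here. Further tools were statsmodels 0.14.6, scipy 1.17.1, matplotlib 3.10.9, pandas 2.3.3 and numpy 2.4.6 under Python 3.11.15.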

Additional observations from a re-analysis of the deposited data

How the results depend on the processing

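Over 8 alternatives of scaling, trend and thinning, the ratios of Cd86, Cd274, Pdcd1lg2, Icosl, Cd83, Lgals9 and Icam1 kept their side of 1 or their inclusion of 1. Lgals9 ran from 1.28 to 1.38, Cd274 from 1.15 to 1.22 and Cd86 from 0.781 to 0.834. The ratio of Vsir turned to 0.992 with the expression trend removed, whose fitted log2 value was 0.11 at the abundance of Vsir. With the GC trend removed the interval of Cd80 lay above 1 (ratio 1.24) and that of Havcr2 included 1 (0.891). At a 99% interval the number of members below 1 was 1 (Icosl) and the number above stayed 4, while 11.5% and 15% of all measured genes lay below and above. Without the 2 members overlapped on the opposite strand, Cd274 and Icam1, the number above was 2 and the median log2 ratio was -0.06. The mean in place of the median was 0.03. No member passed 2-fold under any alternative run, or 1.5-fold with the scaling reported. Quotients of paired genes moved by less than their intervals. No paired analysis was possible because each group has 1 library. The low count of Pdcd1lg2 limits any statement on it, and the spread between cultures was not measured.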
